A study of Mus musculus with 9 samples.

Results

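The genes described here are 44 genes of sugar breakdown and of the response to low oxygen, picked by name for what their products are known to do, with earlier results of these data known, and followed in mouse oviduct cells given E2 (17β-estradiol) or 4OHT (4-hydroxytamoxifen). Of the 44 symbols, 43 had a row of their own among the 23332 gene rows of each sample. *Gpi1* appeared only in a row joined with *Pdcd2l* and was not counted, because reads of both genes are mixed there. Its joined row lay between 160 and 197 FPKM in the 9 samples. FPKM count fragments relative to transcript length and to all mapped fragments, so that levels of different genes can be compared. The 43 symbols filled 45 rows, since *Car9* had 3. Of these rows, 40 reached 1 FPKM in at least 3 samples and were tested, 1 for each of 40 symbols, among 11339 tested rows in all. The 5 rows not tested were those of *Epas1*, *Egln3* and *Ankrd37* and the other 2 of *Car9*.

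Glycolysis splits glucose into pyruvate, which is reduced to lactate or enters the mitochondrion through pyruvate dehydrogenase, while the pentose phosphate pathway draws off glucose 6-phosphate for ribose and NADPH. The speed of glycolysis is set mainly at hexokinase and phosphofructokinase, and the latter is activated by fructose 2,6-bisphosphate, which the PFKFB enzymes make and remove. HIF1A and EPAS1 are oxygen-labile transcription factors that pair with ARNT. In oxygen they are hydroxylated by the EGLN enzymes and bound by VHL for degradation, and in low oxygen they bind short DNA cores and raise many glycolytic genes, *Vegfa*, *Bnip3* and the collagen prolyl hydroxylase genes. The oviduct lining secretes the fluid that carries gametes and the embryo, and its cells respond to estradiol through estrogen receptor α.

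The cells were FVB MOE, a monoclonal secretory line of murine oviduct epithelium from FVB mice, so that every RNA-seq sample comes from 1 clone. The cells spent 48 h in phenol red-free medium with charcoal-stripped serum and were then treated for 24 h with 0.1% DMSO, the solvent, with 1 nM E2, or with 100 nM 4OHT. Each condition had 3 samples, numbered 1 to 3 in the labels, and nothing in the labels says whether equal numbers were separate cultures, so p-values measure only the spread between these samples. No sample was grown in low oxygen, and the comparisons address what E2 and the receptor ligand 4OHT did to these transcripts.

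The epithelial list was only partly found. *Pax8*, a transcription factor of secretory oviduct cells, and the keratins *Krt7*, *Krt8* and *Krt18* were above 100 FPKM in every sample, but *Epcam* and *Cdh1* stayed below 0.5 FPKM. *Ovgp1*, on the same list, was only 1.44 to 2.61 FPKM. The summed FPKM of the 7 epithelial markers was 1260 to 1391 in DMSO, 2154 to 2319 in E2 and 1341 to 1487 in 4OHT. *Krt7* differed most, with means of 310 FPKM in DMSO, 816 in E2 and 323 in 4OHT. Of the other lists, ciliated markers summed to 11.8 to 20.9 FPKM, stromal ones to 1.92 to 6.85, endothelial ones to 0.624 to 1.40 and leukocyte ones to 3.02 to 4.01, with *Tyrobp* listed at 0 in all 9 samples. *Foxj1* made up most of the ciliated sum, at 8.95 to 15.9 FPKM. The smooth muscle list reached 932 to 1725 FPKM through *Acta2*, with *Myh11* and *Des* below 0.5. The part of these markers in the results below was not tested. Steps between low FPKM values gave a relative depth of 0.822 to 1.18 (DMSO replicate 1 set to 1), and each 4OHT sample was shallower than each DMSO sample. Read totals listed in the study's supplement were not used here.

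Promoters are shown for the 6 members with the largest log2 differences among those called in E2 against DMSO with the replicate block (below), because *Hk2*, *Vegfa*, *Ddit4* and the collagen prolyl hydroxylase genes are known targets of HIF and the cores HIF binds can be set beside the direction of each gene. The sequences are the 250 bases before the RefSeq transcript start (GRCm38.p6, the assembly that mm10 names), written 5′ to 3′ on the gene's strand. Capitals mark the core ACGTG or GCGTG on either strand, so that CACGT and CACGC are the same cores read from the other strand, and an ACGTG preceded by C is also an E-box.
P4ha2 (chr11:54100674-54100923, + strand): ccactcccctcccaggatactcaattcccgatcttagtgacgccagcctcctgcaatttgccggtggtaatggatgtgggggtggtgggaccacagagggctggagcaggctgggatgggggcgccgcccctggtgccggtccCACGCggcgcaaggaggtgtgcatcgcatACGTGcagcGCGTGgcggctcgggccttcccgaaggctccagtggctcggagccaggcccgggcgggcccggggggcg
Hk2 (chr6:82774455-82774704, - strand): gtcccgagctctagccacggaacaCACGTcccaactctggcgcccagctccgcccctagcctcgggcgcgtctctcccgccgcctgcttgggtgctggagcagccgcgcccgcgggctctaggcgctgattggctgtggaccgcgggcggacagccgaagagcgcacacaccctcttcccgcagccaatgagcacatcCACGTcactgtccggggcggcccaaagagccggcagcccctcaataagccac
Pfkp (chr13:6648772-6649021, - strand): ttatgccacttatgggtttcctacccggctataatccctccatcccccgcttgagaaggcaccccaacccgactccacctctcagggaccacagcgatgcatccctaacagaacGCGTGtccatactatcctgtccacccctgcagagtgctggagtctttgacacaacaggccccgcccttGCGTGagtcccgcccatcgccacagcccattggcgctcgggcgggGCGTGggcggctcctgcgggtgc
Vegfa (chr17:46032378-46032627, - strand): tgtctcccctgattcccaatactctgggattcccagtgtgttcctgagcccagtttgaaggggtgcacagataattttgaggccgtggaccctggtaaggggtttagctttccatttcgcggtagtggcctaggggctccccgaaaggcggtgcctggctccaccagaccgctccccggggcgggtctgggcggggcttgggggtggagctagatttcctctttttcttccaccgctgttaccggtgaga
Ldhb (chr6:142507958-142508207, - strand): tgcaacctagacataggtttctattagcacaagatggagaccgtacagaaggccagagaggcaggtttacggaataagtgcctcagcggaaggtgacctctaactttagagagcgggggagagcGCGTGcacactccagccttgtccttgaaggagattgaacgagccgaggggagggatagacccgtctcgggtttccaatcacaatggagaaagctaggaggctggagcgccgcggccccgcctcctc
Ddit4 (chr10:59951771-59952020, - strand): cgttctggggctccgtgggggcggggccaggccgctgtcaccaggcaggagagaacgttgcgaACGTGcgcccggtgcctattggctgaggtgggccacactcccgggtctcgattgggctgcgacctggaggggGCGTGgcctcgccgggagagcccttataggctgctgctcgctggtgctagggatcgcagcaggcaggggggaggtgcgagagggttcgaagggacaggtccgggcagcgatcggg
The first 3 belong to genes that were higher in E2, and *Vegfa*, *Ldhb* and *Ddit4* were lower. The *Pfkp* window ends at a transcript start inside the annotated span of the gene. The 6 stretches held 3, 2, 3, 0, 1 and 2 cores, in the order shown. The *Vegfa* stretch lies before its outer start, and the stretch before its other start in the table (chr17:46025164-46025413), which lies inside the annotated gene, held 2. The end of that second window was found in no annotated *Vegfa* transcript, so this start is uncertain. Sites farther upstream were not searched, so neither count describes all HIF sites of *Vegfa*. Over windows from 250 bases before to 50 bases after the start, 37 of the 41 members with a window (90.2%) held a core in at least 1 window, against 12628 of 27025 genes (46.7%). By window, 48 of 62 member windows (77.4%) held a core, against 14380 of all 32851 (43.8%). The genes compared include those not expressed here, and both cores contain CG. Neither expression nor base composition was matched, and the source of the difference was not tested. The palindromic estrogen response element, the half-sites GGTCA and TGACC with any 3 bases between them, was in none of the members' windows and in 20 of the 27025 genes (0.074%). An element this rare was unlikely to be met in 41 genes, so its absence there carries no information. These matches describe letters and not binding, and windows of *Epas1*, *Bnip3l* and *Ndrg1* were not found in the table.

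Levels differed widely within each part of the pathway. In upper glycolysis, mean FPKM over the 9 samples ran from 1.07 for *Aldoc* to 398 for *Aldoa*, the fructose-bisphosphate aldolase of most tissues. *Aldoa* was 385, 403 and 365 FPKM in DMSO, 413, 401 and 375 in E2, and 427, 444 and 369 in 4OHT, in replicates 1, 2 and 3, with the 3 groups overlapping. In lower glycolysis the highest member was *Gapdh*, glyceraldehyde-3-phosphate dehydrogenase, at 937, 1061 and 898 FPKM in DMSO, 988, 971 and 894 in E2, and 1026, 1153 and 909 in 4OHT. These groups also overlapped. *Gapdh*, *Aldoa*, *Tpi1*, *Pgk1*, *Pgam1*, *Eno1* and *Ldha* have processed pseudogenes with near-identical sequence, so that their counting is uncertain, as is that of the 3 *Car9* rows.

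Among the enzymes that set fructose 2,6-bisphosphate, mean levels were low, from 1.87 to 8.30 FPKM, with *Pfkfb2* highest. *Pdha1*, the catalytic E1 alpha subunit of pyruvate dehydrogenase, was 107, 105 and 106 FPKM in DMSO, 113, 111 and 115 in E2, and 115, 114 and 113 in 4OHT. Every treated sample lay above every DMSO sample, but the adjusted p-values of both comparisons with DMSO were above 0.05 (limma with the replicate block, 0.0679 for E2 and 0.376 for 4OHT). In the pentose phosphate pathway *Tkt*, transketolase, was highest, at 326, 224 and 242 FPKM in DMSO, 300.4, 224 and 238 in E2, and 342, 246 and 234 in 4OHT. Replicate 1 was the highest *Tkt* sample in each condition, and the conditions overlapped.

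Of the HIF subunits, *Hif1a* had a mean of 61.3 FPKM and its partner *Arnt* 10.3 FPKM, whereas *Epas1*, which encodes HIF2 alpha, lay between 0.0039 and 0.0284 FPKM. *Egln1*, the main HIF prolyl hydroxylase, was 39.3, 40.3 and 41.2 FPKM in DMSO, 40.4, 38.4 and 43.7 in E2, and 40.9, 43.2 and 42.6 in 4OHT, with overlapping groups. *Egln3*, a hydroxylase gene that HIF itself induces, was listed at 0 in 7 samples and at 0.009 and 0.031 FPKM in the other two. *P4ha1*, a collagen prolyl 4-hydroxylase subunit, was the highest hypoxia target, at 121, 102 and 113 FPKM in DMSO, 119, 102 and 112 in E2, and 127, 105 and 116 in 4OHT. The carbonic anhydrase gene *Car9*, a common marker of hypoxia, did not exceed 1.91 FPKM in any of its 3 rows, and *Ankrd37* did not exceed 0.779 FPKM.

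**Figure D1:**
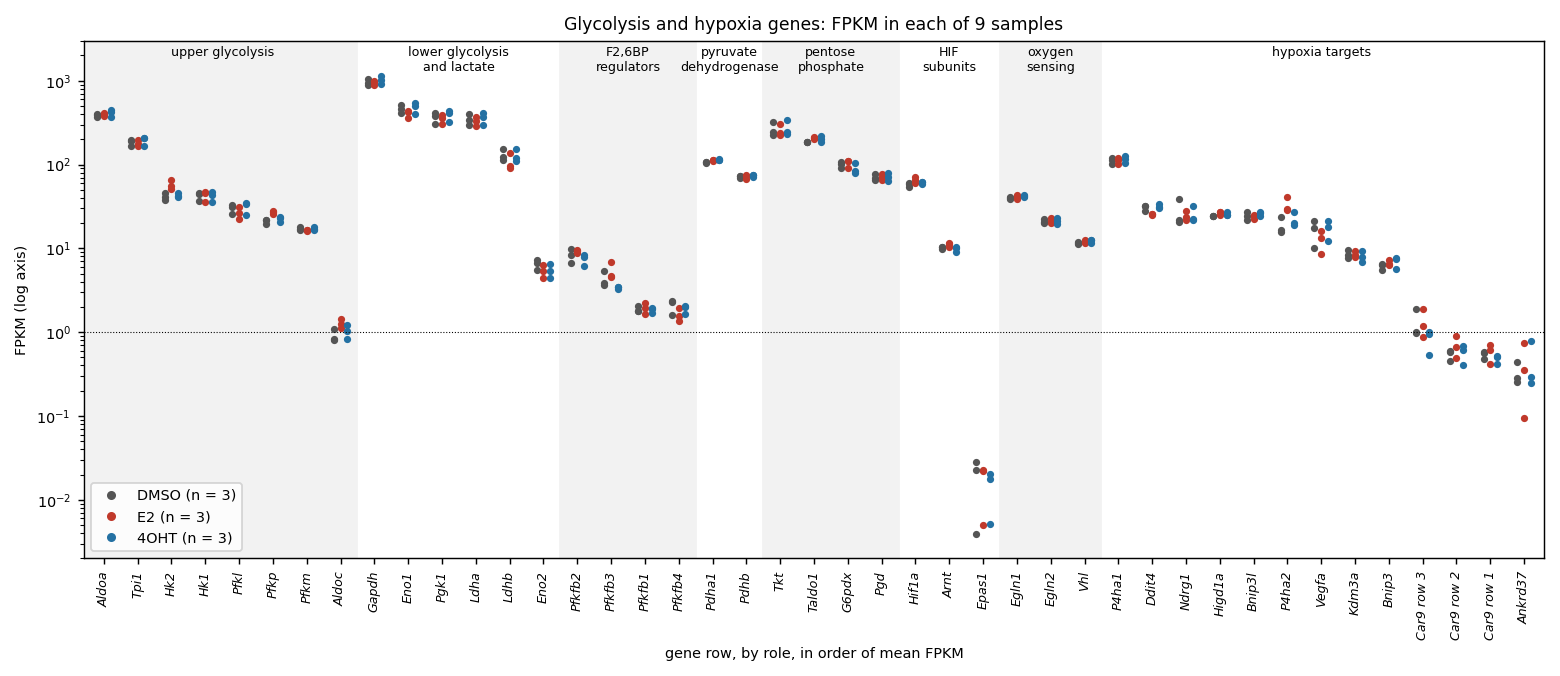
FPKM on a log axis for each member row, grouped by role and ordered by mean; each point is 1 sample (grey DMSO, red E2, blue 4OHT, n = 3 each), the dotted line is 1 FPKM, and rows with an exact 0 (*Pgam1*, *Egln3*) are left out. *Gapdh* is the highest row at a mean of 982 FPKM, and *Epas1*, *Ankrd37* and 2 rows of *Car9* lie wholly below 1 FPKM.

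*Pgam1*, phosphoglycerate mutase, was set apart because it was listed at 0 in DMSO replicate 1 and in 4OHT replicate 2. The other samples were 399.6 and 367 FPKM in DMSO, 325, 328 and 340.2 in E2, and 374 and 379 in 4OHT. In all 7 samples with a value the level was above 300 FPKM, and an exact 0 beside such values can be a failed estimate, so no mean or fold change is given. Every E2 sample lay below every other sample with a value. The row stayed among the 40 tested members with its zeros, and so entered their counts and medians. *Pkm*, the muscle-type pyruvate kinase gene, is no member but belongs to the other pathway genes described below. It is named here after its values were seen. Its row was listed at 0 in DMSO replicates 1 and 3 and in E2 replicate 1 and lay between 335 and 523 FPKM elsewhere.

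In E2 against DMSO, *P4ha2*, *Hk2* and *Pfkp* had the largest differences upward among the members with a called change, and *Vegfa*, *Ldhb* and *Ddit4* were lower, while most other members stayed close to DMSO. These calls depended on the pairing of samples by replicate number. Without a block, none of the 40 tested members had an adjusted p under 0.05 (limma, smallest adjusted p 0.0966, for *Pfkp*), and 8 had an unadjusted p under 0.05. In that fit 0.512% of all 11339 rows were called. With the replicate block, 7 of the 40 members (17.5%) were called, 4 higher and 3 lower, against 15% of all rows, so the members' share was near the background. The median log2 fold change was 0.02 over the members and -0.003 over all tested rows.

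*P4ha2* encodes a second catalytic subunit of the collagen prolyl 4-hydroxylase, which acts on procollagen in the endoplasmic reticulum. It was 23.9, 15.7 and 16.5 FPKM in DMSO, 41.5, 28.4 and 29.1 in E2, and 27.4, 18.8 and 20.1 in 4OHT. Replicate 1 was the highest in every condition, and no E2 sample overlapped with DMSO. The mean rose 1.77-fold from 18.7 ± 4.55 to 33.0 ± 7.37 FPKM (SD, n = 3). On the log2(FPKM + 1) scale the difference was 0.79 with a standard error of 0.029 (limma with the replicate block, adjusted p = 0.000262; without the block, standard error 0.215 and adjusted p = 0.25). Being bulk RNA, these levels do not tell fewer cells with a transcript from less of it per cell.

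*Hk2* encodes hexokinase 2, the inducible enzyme of the first step of glycolysis. Its levels were 45.8, 37.8 and 40.6 FPKM in DMSO, 66.1, 55.8 and 50.6 in E2, and 45.7, 40.9 and 42.5 in 4OHT. All E2 samples lay above all others, and the 4OHT samples lay within the DMSO range. The log2 fold change for E2 was 0.46 (SE 0.059, adjusted p = 0.00653 by limma with the replicate block; 0.18 without it). *Hk1*, the constitutive hexokinase, was 46.0, 44.4 and 36.4 FPKM in DMSO and 46.1, 47.4 and 35.6 in E2. Its groups overlapped, and its log2 fold change was 0.02.

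*Pfkp* encodes the platelet-type phosphofructokinase. It was 19.7, 21.5 and 21.6 FPKM in DMSO, 25.4, 27.0 and 28.2 in E2, and 20.8, 22.8 and 23.9 in 4OHT. The E2 samples were above both other groups, and the log2 fold change was 0.34 (SE 0.028, limma with the replicate block, adjusted p = 0.00173). The other phosphofructokinase genes, *Pfkl* (log2 fold change -0.16) and *Pfkm* (-0.05), were lower in E2 in all 3 replicate pairs without passing the test (block adjusted p 0.14 and 0.27).

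*Hif1a* was 59.9, 54.6 and 58.3 FPKM in DMSO, 71.0, 60.5 and 64.9 in E2, and 61.3, 58.8 and 62.0 in 4OHT. The lowest E2 sample was just above the highest DMSO sample. The rise was 1.14-fold, or 0.18 on the log2 scale (SE 0.038, limma with the replicate block, adjusted p = 0.029).

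*Vegfa*, the angiogenic growth factor and a classical HIF target, was 10.2, 17.2 and 20.9 FPKM in DMSO, 8.66, 13.1 and 15.9 in E2, and 12.3, 17.8 and 21.2 in 4OHT. The groups overlapped widely because the 3 replicates differed more than the conditions did, but E2 was the lowest condition within each replicate number. The log2 fold change was -0.32 (limma, SE 0.05 and adjusted p = 0.012 with the replicate block, SE 0.309 and adjusted p = 0.73 without it).

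*Ldhb*, whose subunit favours turning lactate into pyruvate, was 123, 112 and 155 FPKM in DMSO, 95.9, 91.8 and 139 in E2, and 121, 112 and 152 in 4OHT. Replicate 3 was the highest in every condition, and within each number E2 was lowest (log2 fold change -0.27, SE 0.046, limma with the replicate block, adjusted p = 0.0155). *Ddit4*, a stress-induced inhibitor of mTORC1, was 32.0, 32.4 and 27.8 FPKM in DMSO, 24.8, 26.0 and 25.4 in E2, and 33.9, 30.8 and 30.6 in 4OHT. No E2 sample of *Ddit4* reached the other groups (log2 fold change -0.26, SE 0.057, limma with the replicate block, adjusted p = 0.0321).

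In fits with the block that left out 1 sample at a time, *P4ha2*, *Pfkp* and *Hk2* kept an adjusted p under 0.05 for E2 versus DMSO in all 9 fits (limma). *Vegfa* lost it without DMSO replicate 2 (0.0652), DMSO replicate 3 (0.064) or E2 replicate 3 (0.0531). *Ldhb* lost it without DMSO replicate 1, 2 or 3 (0.0557, 0.0767 and 0.0578) or E2 replicate 2 (0.0513). *Hif1a* kept it only without 4OHT replicate 1, 4OHT replicate 2 or E2 replicate 2, and was between 0.0514 and 0.116 without each of the other 6. *Ddit4* kept it only without DMSO replicate 3 or 4OHT replicate 2, and otherwise lay between 0.0503 and 0.132. The number of members called ranged from 3, without DMSO replicate 2, to 8, without 4OHT replicate 2. It was 4 without DMSO replicate 1, DMSO replicate 3 or E2 replicate 3.

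**Figure D2:**
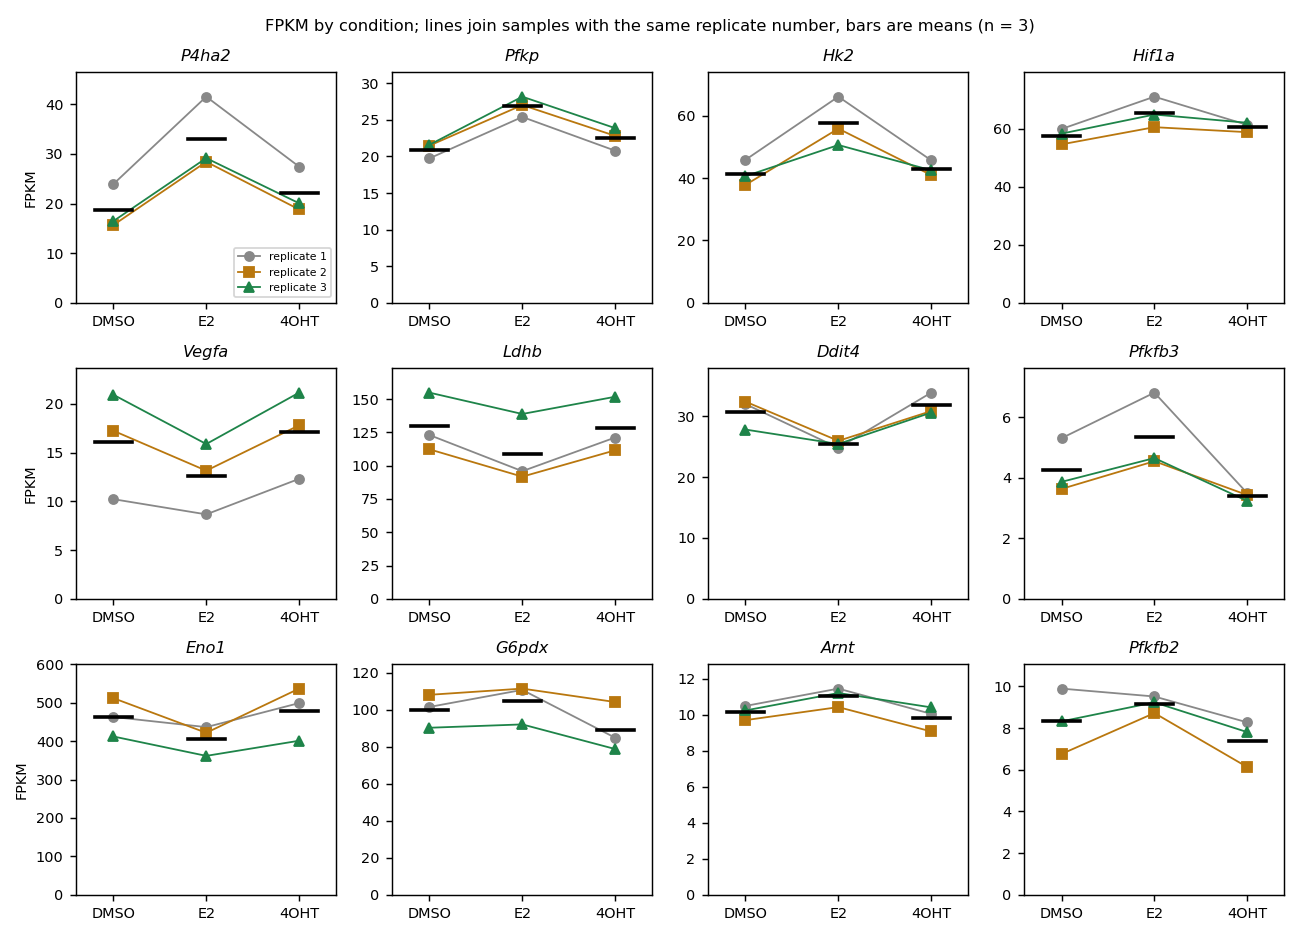
FPKM (axis from 0) by condition for the 12 members called in either comparison of E2, in the fit with the replicate block; lines join samples with the same replicate number and black bars are means of 3. *P4ha2*, *Pfkp* and *Hk2* peak in E2 in each replicate, *Vegfa*, *Ldhb*, *Ddit4* and *Eno1* dip there, and for *Vegfa* the replicates lie farther apart than the conditions.

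The other members gave no call in E2 against DMSO. Those nearest were *Eno1*, enolase 1 (463, 512 and 412 FPKM in DMSO, 436, 422 and 362 in E2; log2 fold change -0.18, block adjusted p = 0.0571), and *Taldo1*, transaldolase (187, 187 and 184 against 211, 209.6 and 199; log2 fold change 0.15, block adjusted p = 0.0625), both by limma. *Gapdh*, *Pgk1*, *Tpi1*, *Ldha* and *Aldoa* had log2 fold changes between -0.07 and 0.05, and the block intervals of *Gapdh* (-0.15 to 0.11) and *Aldoa* (-0.05 to 0.15) leave room for small changes of either sign. Larger differences without a call, of 1 sign in all 3 replicate pairs, were those of *Pfkfb3* (0.26), *Aldoc* (0.25), *Pfkfb4* (-0.23) and *Eno2* (-0.225). Their block adjusted p-values by limma were 0.119, 0.098, 0.0643 and 0.159. Of the oxygen-sensing genes, *Egln1*, *Egln2* and *Vhl* had log2 fold changes of 0.02, 0.02 and 0.04. Among the hypoxia targets, *P4ha1* (-0.01), *Bnip3l* (-0.02) and *Kdm3a* (-0.01) were near 0, *Bnip3* (0.11) and *Higd1a* (0.10) were slightly positive and *Ndrg1* was -0.10, none of them called.

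In 4OHT against DMSO no member was called in either fit, and neither was any other row (0% in both). The study's own test of the same samples, by Cuffdiff, did report genes raised or lowered by 4OHT, with no member among them. Without the block 1 member and 313 of all rows had an unadjusted p under 0.05, and the members' smallest adjusted p was 1 (limma). With the block 7 had an unadjusted p under 0.05 (limma, smallest adjusted p 0.239, for *P4ha2*), against 1480 of all rows. The *P4ha2* difference was 0.24 (95% interval 0.17 to 0.31 before adjustment), higher in all 3 replicate pairs, and *Pfkfb3* was -0.25 (-0.48 to -0.02), lower in all 3. The tested *Car9* row, which is near 1 FPKM, was -0.31 (-0.86 to 0.25), lower in all 3. Apart from it and *Pgam1*, the members' log2 fold changes ran from -0.25 to 0.24, with a median of 0.053 over the 40 members and 0.025 over all tested rows. For *Hk2* the interval was -0.09 to 0.20, and for *Vegfa* -0.02 to 0.22.

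In E2 against 4OHT, which shares the E2 samples with E2 versus DMSO and the 4OHT samples with 4OHT versus DMSO, *P4ha2*, *Pfkfb3* and *Hk2* had the largest upward differences called and *Vegfa*, *Ddit4*, *Ldhb* and *Eno1* were lower in E2. No member was called without the block, where 0.159% of all rows were called, 6 members had an unadjusted p under 0.05, and the smallest adjusted p was 0.206 (limma, *Ddit4*). With the replicate block 11 of 40 members (27.5%) were called, 7 higher and 4 lower in E2, against 16.2% of all rows. The median was -0.013 over the members and -0.015 over all rows.

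For the genes already described, the log2 fold changes against 4OHT were 0.56 for *P4ha2*, 0.25 for *Pfkp*, 0.40 for *Hk2*, -0.42 for *Vegfa*, -0.31 for *Ddit4* and -0.25 for *Ldhb*, with block adjusted p-values of 0.00133, 0.00637, 0.0127, 0.00701, 0.0222 and 0.0224 (limma). *Hif1a* was 0.10 (block adjusted p = 0.104) and was not called against 4OHT. Each of the 7 genes had the same sign within all 3 replicate numbers.

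*Pfkfb3* encodes the PFKFB enzyme with the highest ratio of kinase to phosphatase activity, which favours glycolysis. It was 5.30, 3.63 and 3.86 FPKM in DMSO, 6.81, 4.54 and 4.65 in E2, and 3.49, 3.43 and 3.23 in 4OHT. E2 lay wholly above 4OHT, by 1.58-fold in mean FPKM and 0.51 on the log2(FPKM + 1) scale (SE 0.096, limma with the replicate block, adjusted p = 0.0229), and DMSO lay between them in mean. Neither difference from DMSO was called, at 0.26 for E2 and -0.25 for 4OHT against DMSO. *Pfkfb2*, the heart-type enzyme, was 9.90, 6.76 and 8.32 FPKM in DMSO, 9.52, 8.72 and 9.24 in E2, and 8.28, 6.13 and 7.81 in 4OHT. It was 0.28 higher in E2 than in 4OHT, just past the threshold (limma with the replicate block, adjusted p = 0.0493; 0.0585 with upper-quartile scaling).

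*Eno1* was 499, 537 and 401 FPKM in 4OHT, and E2 was 0.23 lower on the log2 scale (SE 0.049, limma with the replicate block, adjusted p = 0.032), lower in each replicate pair although the groups overlapped. *G6pdx*, glucose-6-phosphate dehydrogenase of the pentose phosphate pathway, was 101, 108 and 90.2 FPKM in DMSO, 111, 111 and 92.0 in E2, and 84.8, 104 and 78.7 in 4OHT (log2 fold change 0.23, block adjusted p = 0.0392). *Arnt* was 10.5, 9.69 and 10.2 FPKM in DMSO, 11.4, 10.4 and 11.2 in E2, and 10.0, 9.06 and 10.4 in 4OHT (log2 fold change 0.15, block adjusted p = 0.0344, limma).

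For E2 versus 4OHT, *P4ha2*, *Pfkp* and *Vegfa* kept their call in all 9 block fits without 1 sample (limma). *Hk2* lost it without 4OHT replicate 1 (0.0684) or 2 (0.0567), and *Ldhb* without 4OHT replicate 1 (0.112) or 2 (0.0924) or E2 replicate 1 (0.0515) or 2 (0.0724). *Ddit4* lost it without any single 4OHT sample or E2 replicate 1 or 2 (0.0506 to 0.107), and *Pfkfb3* without any single E2 sample, 4OHT replicate 3 or DMSO replicate 3 (0.0512 to 0.0567). *Eno1* kept it only without DMSO replicate 1, E2 replicate 1 or 4OHT replicate 3 (otherwise 0.0557 to 0.133), *Pfkfb2* only without DMSO replicate 1 or E2 replicate 1 (0.0629 to 0.172), *Arnt* only without 4OHT replicate 3 (0.0563 to 0.142) and *G6pdx* only without 4OHT replicate 2 (0.0612 to 0.133). The number called fell to 4 without E2 replicate 2 or 4OHT replicate 1, to 5 without 4OHT replicate 2, to 6 without DMSO replicate 3 or E2 replicate 3, and to 7 without DMSO replicate 2, E2 replicate 1 or 4OHT replicate 3, and was 9 without DMSO replicate 1.

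**Figure D3:**
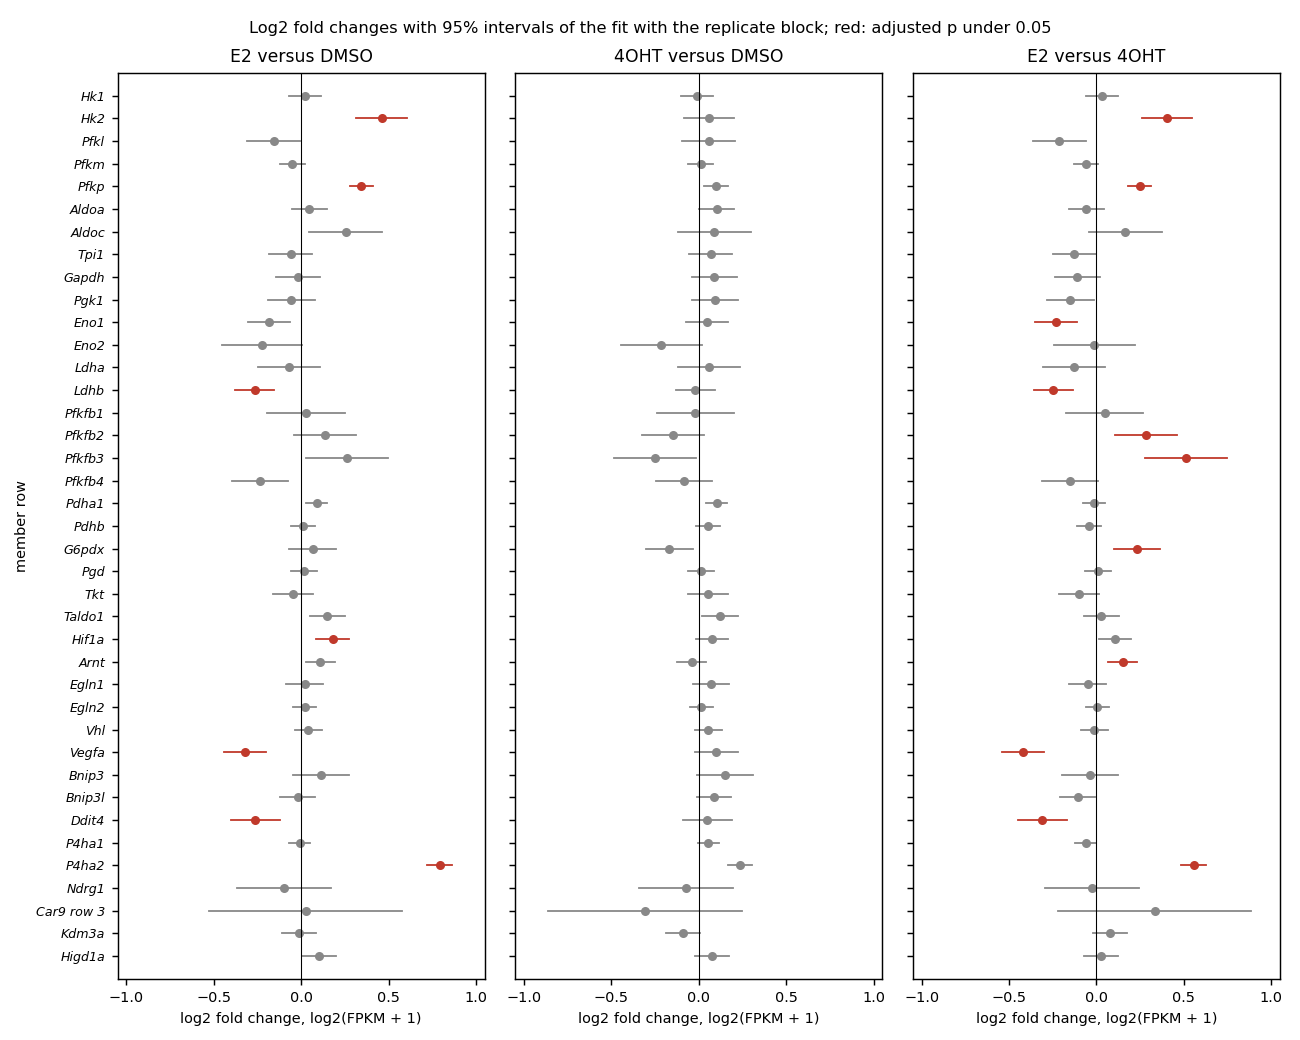
Log2 fold changes of log2(FPKM + 1) for 39 tested member rows (*Pgam1* left out) in the 3 comparisons, with 95% intervals of the limma fit with the replicate block; red marks an adjusted p under 0.05. There are 7 red rows for E2 versus DMSO, none for 4OHT versus DMSO and 11 for E2 versus 4OHT, and *P4ha2* lies farthest from 0 in both comparisons of E2.

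The share of 1 isoenzyme in the summed FPKM of its family was followed in 7 families, an addition to the plan. *Hk2*, *Pfkp*, *P4ha2*, *Ldhb* and *Pfkfb3* were already called above with the replicate block. Their shares restate the same FPKM and are no separate support for those calls. *Hk2* made up 49.5 ± 3.38% of the summed FPKM of *Hk1* and *Hk2* in DMSO, 57.2 ± 2.72% in E2 and 50.8 ± 3.94% in 4OHT (SD, n = 3). *Pfkp* made up 30.9 ± 2.77%, 38.4 ± 3.73% and 31.9 ± 3.97% of the 3 phosphofructokinase genes. *P4ha2* made up 14.2 ± 2.06%, 22.7 ± 2.77% and 15.9 ± 1.64% of *P4ha1* and *P4ha2*. *Aldoc* made up 0.235 ± 0.043%, 0.318 ± 0.022% and 0.252 ± 0.074% of *Aldoa* and *Aldoc*. Each of these 4 shares was higher in E2 than in DMSO in 3 of 3 replicate pairs, and the 2-sided exact permutation p was 0.1 for each, the smallest that 3 samples against 3 allow. The *Pfkfb3* share of the 4 PFKFB genes was 25.6 ± 2.54% in DMSO, 29.3 ± 4.22% in E2 and 23.3 ± 1.90% in 4OHT, also higher in E2 than in DMSO in all 3 pairs (exact permutation p = 0.3 for E2 versus DMSO and 0.1 for E2 versus 4OHT). The *Ldhb* share of *Ldha* and *Ldhb* was 27.6 ± 6.35%, 25.0 ± 6.51% and 26.6 ± 6.65%, lower in E2 than in DMSO in all 3 pairs by less than the spread between replicates (exact permutation p = 0.5). The *Eno2* share of *Eno1* and *Eno2* was 1.40 ± 0.344%, 1.33 ± 0.363% and 1.16 ± 0.404% (exact permutation p = 0.7 for E2 versus DMSO). These p-values are for 7 families and were not adjusted, since none could pass.

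**Figure D4:**
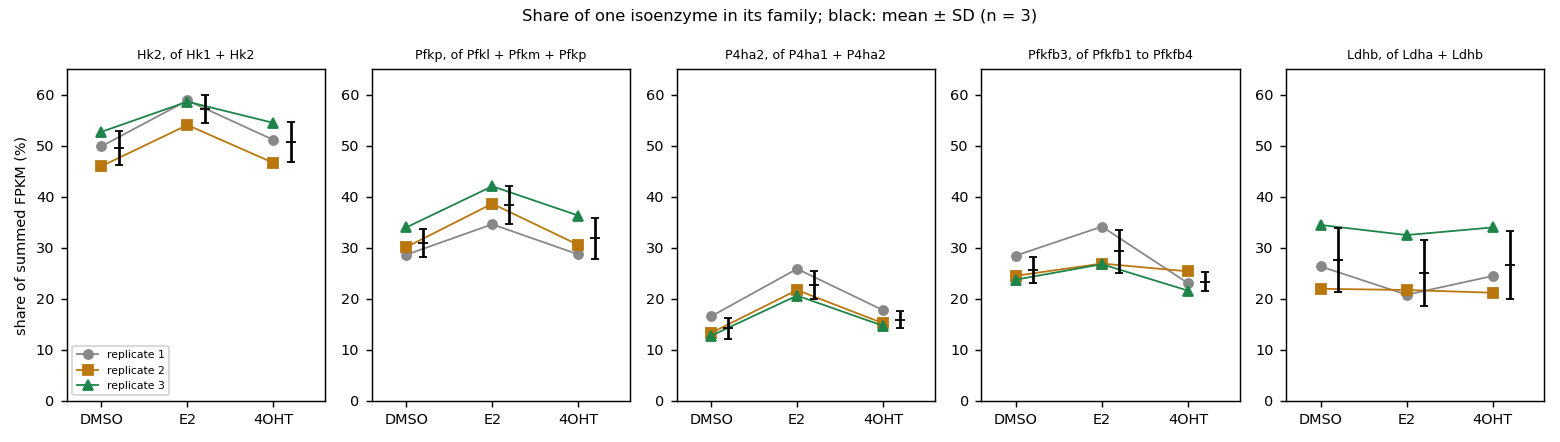
Share (%) of 1 isoenzyme in the summed FPKM of its family in each sample; lines join samples with the same replicate number, and black marks are the mean ± SD of 3. The *Hk2*, *Pfkp* and *P4ha2* shares are highest in E2 in each replicate (means 57.2, 38.4 and 22.7%), while the *Ldhb* share is set apart mainly by replicate 3.

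Much of the variation of these genes followed the replicate number and not the treatment. In the 39 tested rows without an exact 0, the replicate number accounted for a median of 59.75% and the condition for 23.69% of the sum of squares, against 51.43% and 26.67% over the 11094 such rows of the whole series. Random spread alone also gives the replicate number and the condition a share each, equal on average, so neither percentage by itself measures an effect. The replicate share was the larger in 26 members (66.67%) and in 66.96% of all rows, so the members were like the rest. Members of 1 role did not share 1 pattern. *Hk1*, *Pfkl*, *Tpi1*, *Gapdh*, *Pgk1*, *Eno1* and *Ldha* were all lowest on average in replicate 3, by 0.12 to 0.24 below their means on the log2(FPKM + 1) scale, while *Ldhb* and *Eno2* were 0.30 and 0.21 above their means there. *Ldha* was 344, 399 and 294 FPKM in DMSO, 365, 331 and 289 in E2, and 374, 415 and 295 in 4OHT. *P4ha2*, *Ndrg1* and *Tkt* were highest in replicate 1, by 0.34, 0.36 and 0.30, and *Vegfa* was lowest there, by 0.47. *Ndrg1*, a stress-responsive gene, was 38.7, 20.8 and 21.8 FPKM in DMSO, 27.8, 21.7 and 23.7 in E2, and 31.6, 22.2 and 21.6 in 4OHT.

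**Figure D5:**
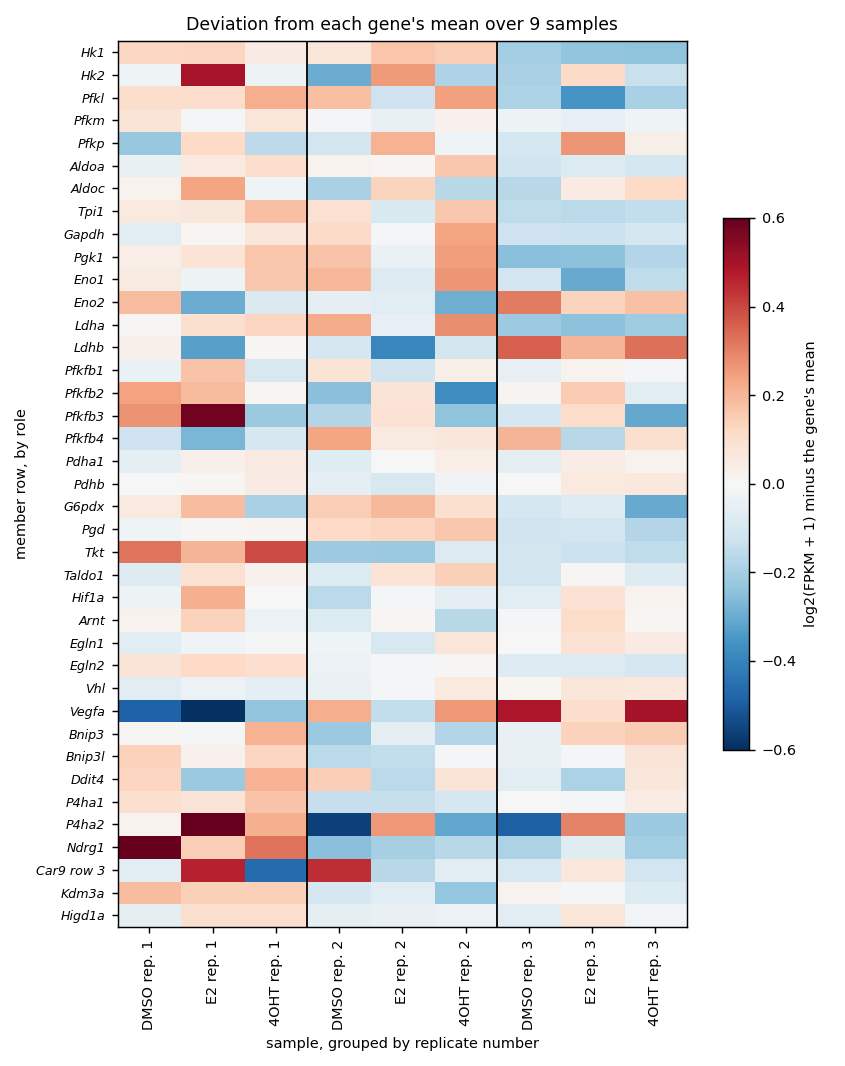
Deviation of log2(FPKM + 1) from each gene's mean over 9 samples, for 39 member rows by role, with samples grouped by replicate number (red above, blue below the mean, colours cut at 0.6). The 3 samples of replicate 3 are blue for most glycolytic enzymes and red for *Ldhb* and *Vegfa*, and the E2 column of each replicate stands out for *P4ha2*, *Hk2* and *Pfkp*.

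Other genes of these pathways, 67 listed and 48 tested, included a larger change than any member's, with rows holding an exact 0 set apart. *P4hb* was listed at 0 in all DMSO samples, E2 replicate 2 and 4OHT replicate 1, and lay between 168 and 245 FPKM elsewhere. These zeros can be failed estimates, so no fold change is given. *P4hb* and *Pkm* stayed among the 48 with their zeros and so entered the counts below. In E2 against DMSO, *Adm*, the vasodilator peptide adrenomedullin, was 6.76, 7.80 and 5.29 FPKM in DMSO, 19.2, 25.5 and 18.2 in E2, and 7.03, 11.0 and 6.12 in 4OHT. It rose 3.17-fold (log2 fold change 1.53, limma without a block, adjusted p = 0.0396). *Pdk4*, a kinase that shuts off pyruvate dehydrogenase, was 10.0, 11.3 and 9.68 FPKM in DMSO, 6.55, 7.08 and 6.79 in E2, and 9.47, 10.2 and 9.28 in 4OHT, and fell in E2 (log2 fold change -0.54, limma without a block, adjusted p = 0.0213). These were the only 2 of the 48 called without the block (4.17%, against 0.512% of all rows), in a list that was chosen with earlier results of these data known. With 1 sample left out, *Adm* kept its call only without 4OHT replicate 2 (limma, adjusted p 0.0549 to 0.162 otherwise), and *Pdk4* lost it without any single E2 sample, DMSO replicate 2 or DMSO replicate 3 (0.0584 to 0.0986).

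With the replicate block 11 of the 48 (22.9%) were called in E2 against DMSO, 7 higher and 4 lower, against 15% of all rows. Beside *Adm* and *Pdk4*, the smallest p-values were those of *Pgf*, a placental growth factor related to *Vegfa* (log2 fold change -0.43, 1.46 FPKM in DMSO and 0.825 in E2), *Plod1* (0.23) and *Loxl2* (0.24), which modify collagen, *Arnt2* (-0.25), a paralog of *Arnt*, *Eno3* (-0.32), the muscle enolase, and *Gbe1* (0.14), the glycogen branching enzyme, with block adjusted p-values between 0.00945 and 0.0272 for these 6 genes. None of the 48 was called in 4OHT against DMSO. In E2 against 4OHT 15 were called with the block (31.2%, against 16.2% of all rows), 5 higher and 10 lower, and none without it (7 with an unadjusted p under 0.05). The 8 with the smallest p were *Adm* (1.30), *Pdk4* (-0.45), *Pgf* (-0.42), *Loxl2* (0.25), *Cited2* (-0.26), which limits HIF activity, *Eno3* (-0.33), *Pck2* (-0.27), a mitochondrial gluconeogenic enzyme, and *Arnt2* (-0.24). *Slc2a1*, the glucose transporter GLUT1, was 18.3, 26.9 and 22.1 FPKM in DMSO, 18.9, 24.8 and 22.0 in E2, and 20.2, 30.7 and 24.2 in 4OHT, with overlapping groups. It is named for its role, after its values were seen, and E2 was below 4OHT at the edge of the threshold (log2 fold change -0.17, limma with the replicate block, adjusted p = 0.0499).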

How the data were processed

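RNA-seq of 9 samples (3 each of DMSO, E2 and 4OHT) was grouped by the treatment and replicate labels. Per the labels and the study's methods, the authors removed adapters and poor reads, used TopHat2 2.0.8b for alignment to mm10 and Cufflinks or Cuffdiff 2.1.1 with a UCSC annotation for expression, and deposited FPKM. FPKM are not counts, so log2(FPKM + 1) of the rows with at least 1 FPKM in at least 3 samples was fitted with limma 3.58.1 (R 4.3.3, variance trend, all 9 samples in 1 fit, no block) and adjusted by Benjamini-Hochberg over 11339 rows, with a threshold of 0.05. A second fit, blocked on the replicate number, is given beside it. The pairing comes from the labels: deviations of same-numbered samples from their condition means correlated at 0.523 to 0.828 over 11094 rows without an exact 0, and at 0.053 to 0.293 over all 11339. The fits were tested on simulated data. Promoters and coordinates came from RefSeq (GRCm38.p6). Python 3.11.15 was used for the rest.

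The members and lists were chosen with earlier results of these data known. Values per sample are given for members called without the block, up to 8 per comparison with the smallest p under the block, members with an exact 0, and the highest member of each role. Values of other genes were added where a comparison between isoenzymes or replicates needed them. FPKM hold no read counts, so no counting interval is given. Alternatives were the replicate block, a pseudocount of 0.1, no filter, upper-quartile scaling, only the 6 samples compared, exact zeros as missing, a robust variance prior and each sample left out.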

Additional observations from a re-analysis of the deposited data

How the results depend on the processing

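No member was called without the replicate block under any alternative tried or with any sample left out. With the replicate block the members called were 7 for E2 versus DMSO, 0 for 4OHT versus DMSO and 11 for E2 versus 4OHT. They were 10, 0 and 13 when exact zeros were also missing, with *Pgam1* among the 13. With upper-quartile scaling and the block, an alternative chosen after seeing the data, they were 8, 0 and 11. With the block and 1 sample left out they ranged from 3 to 8, 0 to 0 and 4 to 9. The 18 member changes called with the block kept their direction in all 324 refits. In many of these refits the estimate could not move. The block, the robust prior, no filter, only the 6 samples, or leaving out a sample of the third group give the same difference of means. So does treating exact zeros as missing, because none of these member rows held an exact 0. Only the remaining refits, such as those without a sample of the 2 groups compared, could have changed a direction. Upper-quartile scaling moved the median of all rows from -0.003 to -0.037 for E2 versus DMSO and from 0.025 to -0.027 for 4OHT versus DMSO.

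Over all 11339 rows, the calls for E2 versus DMSO were 58 without the block, 1702 with the replicate block (2128 with zeros missing as well, 1984 with upper-quartile scaling as well), 32 with no filter, 36 with upper-quartile scaling, 8 with only the 6 samples compared, and 8 to 50 with 1 sample left out. For 4OHT versus DMSO they were 0, but 3 with only the 6 samples, 22 with zeros missing and the block, and 0 to 2 with 1 sample left out. For E2 versus 4OHT they were 18, but 1840 with the replicate block (2476 with zeros missing as well, 1871 with upper-quartile scaling as well), 10 with a pseudocount of 0.1, 9 with no filter, 7 with only the 6 samples, 37 with zeros missing, and 0 to 23 with 1 sample left out. The other pathway genes called for E2 versus DMSO were 2, but 11 with the replicate block (13 with zeros missing as well, 12 with upper-quartile scaling as well), 1 with no filter, 0 with only the 6 samples, and 0 to 2 with 1 sample left out. For E2 versus 4OHT they were 0, but 15 with the replicate block (17 with either addition) and 1 with zeros missing. The cause of these shifts was not tested. The files hold no read counts, so the counting error of rows near 1 FPKM, such as *Car9*, *Aldoc* and *Pfkfb1*, is unknown.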
